A study of Mus musculus with 12 samples.

Results

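Lateral mesoderm and limb field regulators were followed in single mouse embryos that lack, by their labels, the homeodomain repressors Tgif1 and Tgif2. The set holds 8 of the 23284 genes of the count table, picked by symbol: Tbx2, Tbx3, Tbx4, Pitx1, Osr1, Tbx18, Wt1 and Tcf21. All 8 passed the filter on low counts that left 14412 genes for testing. The CDKO group, named from the titles, was made of 8 embryos labelled as null for both genes and described as conditional double mutants. The control group was made of 4 wild-type embryos. Every embryo came from a mixed C57BL/6 x 129Sv background and was taken whole at 9.0 dpc with about 9 to 10 somites. The sources used here do not give the Cre line or other means of deletion, or the litters. Polyadenylated RNA of each embryo was sequenced, and the aim stated in the series title is to find expression changes in early embryos without both genes.

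The lateral plate is the mesoderm lying to the side of the somites and the intermediate mesoderm. It gives rise to the limb buds, the body wall, the gut wall and much of the heart. At about this stage the limb fields are being set up within it, the proepicardium forms beside the heart, and the allantois has grown from the posterior end. T-box genes encode transcription factors that share a DNA-binding domain and divide these territories among themselves: Tbx2 and Tbx3 encode repressors, Tbx4 acts in the hindlimb field and allantois, and Tbx18 marks the proepicardium and other mesoderm. Pitx1 encodes a homeodomain factor that gives the hindlimb its identity. Osr1, a zinc finger gene, marks lateral and intermediate mesoderm, while Wt1 and Tcf21 act in the coelomic lining, the epicardium, the kidney and the gonad.

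The RefSeq promoter table (GRCm38.p6) held 3 of the 8 genes, and the 250 bases before the start it lists for each are shown because TGIF proteins bind a site with the core TGTCA. Capitals mark TGTCA or, for the other strand, TGACA. The Tbx4 window is chr11:85896515-85896764 on the plus strand, the Tbx18 window is chr9:87731261-87731510 on the minus strand, and the Tcf21 window is chr10:22820144-22820393 on the minus strand.
Tbx4: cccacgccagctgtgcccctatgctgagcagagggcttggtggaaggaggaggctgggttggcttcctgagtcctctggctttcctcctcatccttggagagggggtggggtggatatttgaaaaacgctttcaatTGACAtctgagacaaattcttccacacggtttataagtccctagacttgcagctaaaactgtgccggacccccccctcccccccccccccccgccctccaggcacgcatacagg
Tbx18: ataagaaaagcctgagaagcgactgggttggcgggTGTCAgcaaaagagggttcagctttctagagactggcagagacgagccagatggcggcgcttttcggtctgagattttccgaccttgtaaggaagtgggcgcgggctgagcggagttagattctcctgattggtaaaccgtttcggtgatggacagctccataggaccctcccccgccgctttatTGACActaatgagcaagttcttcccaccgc
Tcf21: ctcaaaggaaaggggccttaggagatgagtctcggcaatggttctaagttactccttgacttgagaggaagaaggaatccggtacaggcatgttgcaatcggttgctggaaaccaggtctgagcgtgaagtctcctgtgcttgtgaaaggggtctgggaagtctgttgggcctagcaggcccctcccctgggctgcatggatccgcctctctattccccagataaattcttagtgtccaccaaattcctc
The Tbx4 window lies inside the gene: of 3 GENCODE M21 transcripts 1 starts right after it and 2 start upstream of it. Both GENCODE transcripts of Tcf21 also start upstream of the RefSeq start, and 1 of 2 of Tbx18 starts right after its window. The core was found at 1 place in the Tbx4 window, at 2 places in that of Tbx18 and at 0 places in that of Tcf21. Of 32851 promoter windows of this length, 40% held it at least 1 time and 11.1% held it at least 2 times. A T-box site spelled AGGTGTGA (TCACACCT on the other strand) was in none of the 3 windows and in 1.12% of all windows. These matches describe letters in a window and are not evidence of binding.

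The libraries held 16802367 to 21346245 counts in the 8 CDKO embryos and 17296017 to 20080786 counts in the 4 wild-type embryos. Levels are given as CPM, counts scaled to a common library total after TMM scaling, and differences as log2 fold changes, CDKO over wild type, from edgeR's quasi-likelihood test, with p adjusted by Benjamini-Hochberg over the 14412 genes. Tgif1 stood at 6.2 ± 0.528 CPM (SD, n = 8) in the CDKO embryos and at 60.9 ± 2.52 CPM (SD, n = 4) in wild type. Tgif2 stood at 97.9 ± 11.8 CPM in the CDKO embryos and at 87.3 ± 1.17 CPM in wild type (adjusted p = 0.0958). A partial deletion can leave the summed count of a gene as it was, and the genotype at Tgif2 therefore rests on the labels. The summed level of 16 tail bud and posterior axis genes was 45.5 CPM in CDKO embryo 2, which stood apart, 228 to 347 CPM in the remaining CDKO embryos and 416 to 561 CPM in wild type. All listed genes of heart muscle (18), endothelium (15), yolk sac endoderm (15), forebrain (10) and tail bud (16) passed the count filter, while the adult globin genes Hba-a1 and Hba-a2 were listed at 0 in every library.

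Of the 8 regulators, 3 rose in the CDKO embryos and none fell, with 5 not past the threshold. Tbx2, Wt1 and Tcf21 were the genes that rose, by 1.68-fold, 2.27-fold and 1.71-fold. Among all tested genes 51.5% passed, 26.6% higher and 24.9% lower, so 3 of 8 (37.5%) is read against 26.6%. The median log2 fold change was 0.48 over the 8 genes and 0.01 over all tested genes. In Tbx2 and Tcf21 every CDKO embryo lay above every wild-type embryo, which held for 17.5% of all tested genes, with 34.7% separating the groups in either direction. In whole embryos, fewer or more cells of a type and less or more RNA per cell cannot be told apart.

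**Figure D1:**
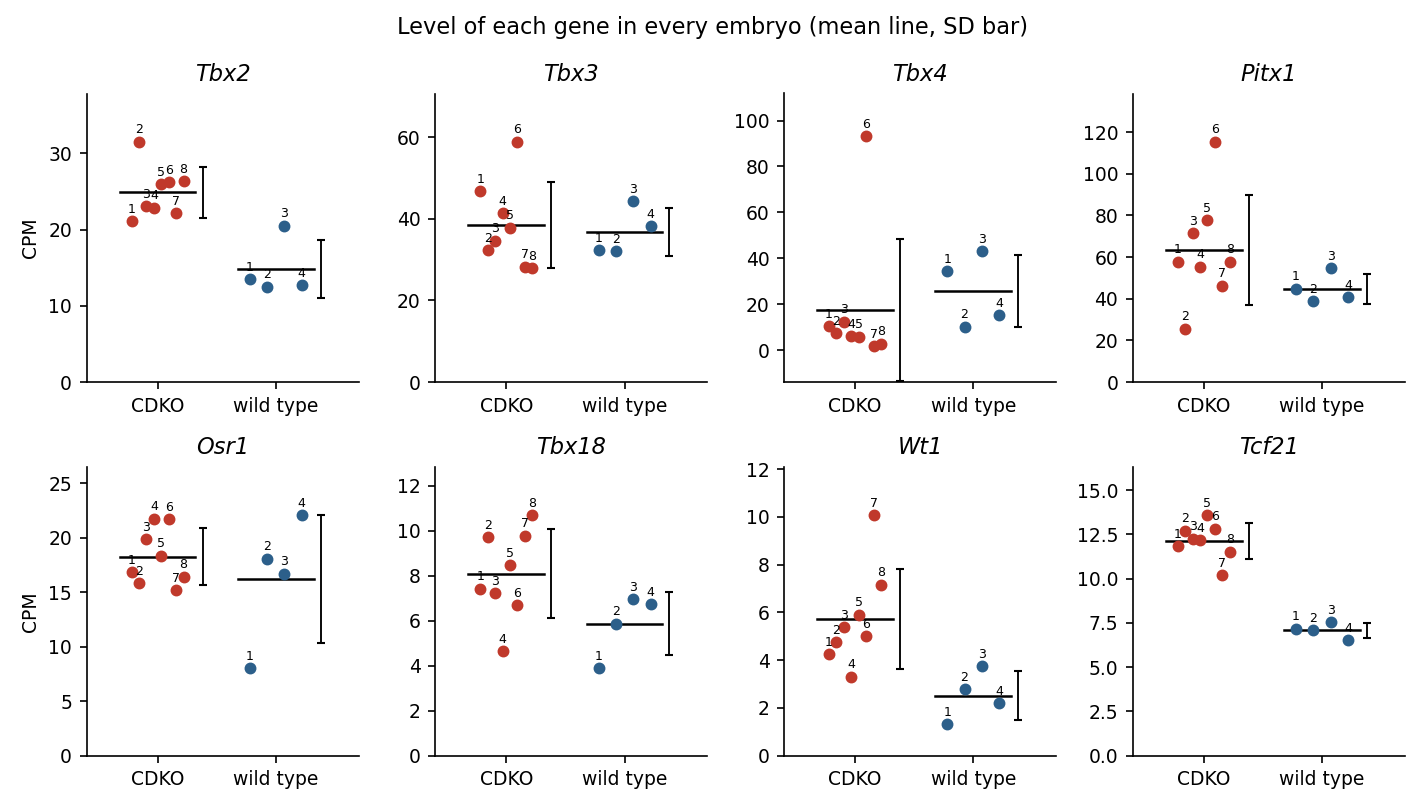
CPM of the 8 genes (vertical axes, each with its own scale) in the 8 CDKO embryos (red, left) and the 4 wild-type embryos (blue, right); small numbers name the embryo, the line is the mean and the bar 1 SD. Tbx2 and Tcf21 separated the groups, and Tbx4 reached 93.2 CPM in CDKO embryo 6 against 12.3 CPM or less in the other 7.

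Tbx2 encodes a T-box repressor active in the outflow tract and atrioventricular canal, the limb margins and the allantois. It was at 21.1 CPM in the lowest, 24.5 CPM at the median and 31.5 CPM in the highest of the CDKO embryos. The wild-type embryos 1 to 4 were at 13.5, 12.5, 20.5 and 12.7 CPM. The groups did not overlap, and wild-type embryo 3 came closest to the CDKO embryos. The log2 fold change was 0.75 (SE 0.14, adjusted p = 0.000377), with higher levels in 8 of 8 embryos.

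Tbx3, the close paralog of Tbx2 with a similar role as a repressor, was at 27.9 CPM in the lowest, 36.2 CPM at the median and 58.9 CPM in the highest CDKO embryo. In wild-type embryos 1 to 4 the levels were 32.3, 32.1, 44.3 and 38.2 CPM, inside that range. Tbx3 differed by 0.07 on the log2 scale (SE 0.19, adjusted p = 0.785), and its 95% interval ran from 0.813-fold to 1.35-fold. The log2 ratio of Tbx2 to Tbx3 averaged -0.60 ± 0.44 (SD, n = 8) in the CDKO embryos and -1.33 ± 0.20 (SD, n = 4) in wild type. That difference of 0.73 gave p = 0.0121 in an exact permutation test over embryos (two-sided, adjusted p = 0.0182 over 3 ratios). It lost its call without wild-type embryo 1 or without wild-type embryo 4 (adjusted p = 0.0545 in both, exact permutation test). The difference was then 0.76 and 0.65. With fewer embryos the exact test has fewer arrangements and coarser p-values, so a lost call alone does not show dependence on an embryo. The 3 pairs of genes were chosen after values were seen, a choice that the p-values of the ratios do not cover.

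Tbx2 lies next to Tbx4, and Tbx3 next to Tbx5, a regulator of the forelimb field and heart, in arrangements that descend from duplicated gene pairs. Tbx5 was at 22.6 to 31.9 CPM in the CDKO embryos, against 7.53 to 17.7 CPM in wild type, with no overlap (log2 fold change 1.0, SE 0.16, adjusted p = 0.000169 by edgeR). The log2 ratio of Tbx5 to Tbx3 averaged -0.51 ± 0.40 (SD, n = 8) in the CDKO embryos and -1.54 ± 0.38 (SD, n = 4) in wild type (difference 1.02, exact permutation test, p = 0.00404, adjusted p = 0.0121 over 3 ratios). All 8 CDKO embryos lay above every wild-type embryo in this ratio, which was likewise chosen after values were seen. The log2 ratio of Tbx2 to Tbx4 averaged 1.66 ± 1.72 (SD, n = 8) in the CDKO embryos and -0.60 ± 0.75 (SD, n = 4) in wild type (difference 2.25, exact permutation test, adjusted p = 0.0364). Leaving out 1 embryo ended that last call in 8 of 12 cases, namely CDKO embryos 2, 4, 5, 7 and 8 (adjusted p = 0.0545 each) and wild-type embryos 1 (0.097), 3 and 4 (0.0727 each). Over the 12 cases the difference ran from 1.94 to 2.75, and the p-values are coarser with fewer embryos here too.

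**Figure D2:**
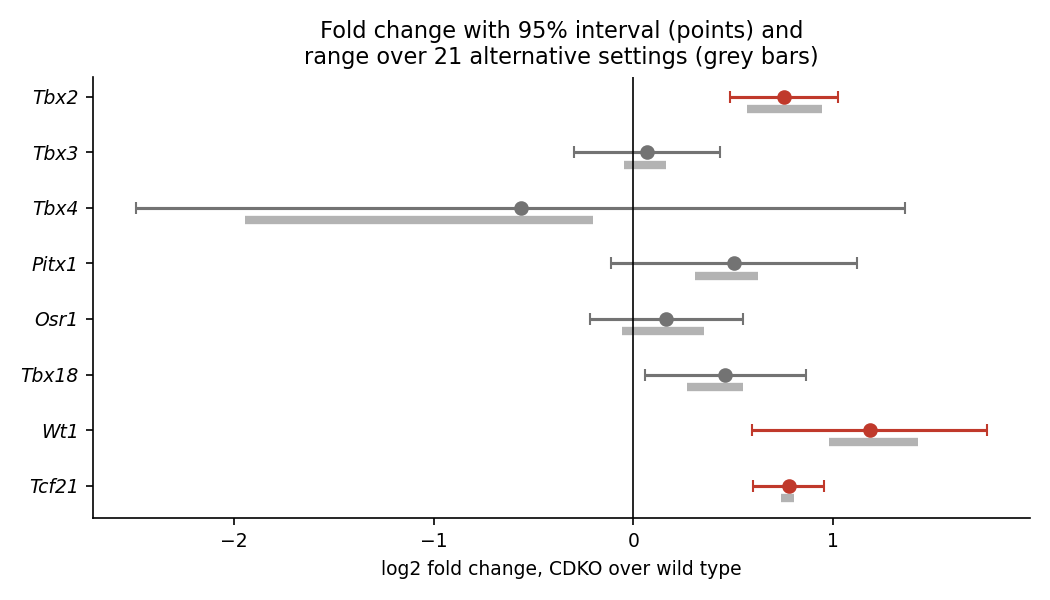
Log2 fold change of each gene, CDKO over wild type (horizontal axis), with its 95% interval (point and whiskers; red where the adjusted p is under 0.05) and the range over 21 other settings of the analysis (grey bar). Tbx2, Wt1, Tcf21 and Tbx18, which was not called, lay above 0 in interval and range, and the interval of Tbx4 ran from 0.178-fold to 2.57-fold.

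Tbx4, which acts in the hindlimb field, the allantois and the lung bud, varied more between embryos than the other 7 genes. The CDKO embryos 1 to 8 were at 10.4, 7.47, 12.3, 6.17, 5.85, 93.2, 1.57 and 2.80 CPM. Wild-type embryos 1 to 4 stood at 34.4, 10.2, 43.0 and 15.2 CPM. CDKO embryo 6 was above every wild-type embryo, embryos 1 and 3 lay within the wild-type range and the remaining 5 lay below it. The ratio of the highest to the lowest embryo was 59.3 in the CDKO group and 4.2 in wild type. Of all tested genes, 0.118% had a wider spread of log2 CPM among the CDKO embryos and 0.319% among the wild-type embryos. The log2 fold change of Tbx4 was -0.56 (SE 0.98, adjusted p = 0.661). Without CDKO embryo 6 the other 7 averaged 6.65 ± 3.84 CPM (SD), and the log2 fold change was -1.95 (SE 0.53, adjusted p = 0.0118 by edgeR). With sample quality weights in limma-voom, all embryos kept, it was -1.44 (SE 0.55, adjusted p = 0.0326).

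Some markers of the allantois and amnion were, like Tbx4, highest in CDKO embryo 6, and others were not. That embryo was the highest of its group in 6 of 11 tested genes of that list (Vcam1, Phlda2, Plac1, Hoxa10, Hoxa11 and Hoxa13), against 17.3% of all tested genes. It was also the highest in 11 of 15 endothelial, 7 of 16 lateral plate and 6 of 16 tail bud genes. In heart muscle (0 of 18) and epicardial genes (0 of 15) it was never the highest. Among the allantois and amnion genes it was the lowest in Ahnak, at 125 CPM. It had 171 CPM of Postn, a matrix gene, in a CDKO range of 129 to 433 CPM. Among wild type, embryo 3 was the highest of its group in 9 of 11, against 22.8% of all. That wild-type embryo also led in 11 of 16 lateral plate and 9 of 15 endothelial genes, and in 0 of 10 forebrain genes. Plac1, a gene best known from the placenta, reached 34.1 CPM in CDKO embryo 6, stayed between 3.2 and 9.04 CPM in the other 7 and lay at 3.8 to 10.9 CPM in wild type. Phlda2, an imprinted gene that limits placental growth, reached 146 CPM in embryo 6, stayed between 15.9 and 61.3 CPM in the other 7 and lay at 32.2 to 62.7 CPM in wild type. Hoxa11, a posterior Hox gene, was at 9.23 CPM in embryo 6, at 0.52 to 2.89 CPM in the other 7 and at 1.30 to 3.34 CPM in wild type. Trophoblast genes summed to 14.8 to 24.4 CPM in the CDKO embryos and to 13.2 to 20.6 CPM in wild type, with the trophoblast gene Ctsq at 0 in every library. CDKO embryos 6 (24.4 CPM) and 2 (24.0 CPM) had the highest of these sums. Of the 10 genes summed, 3 passed the count filter, and embryo 6 was the highest CDKO embryo in 0 of those 3. Whether the amount of allantois in each sample played a part in the Tbx4 values was not tested.

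**Figure D3:**
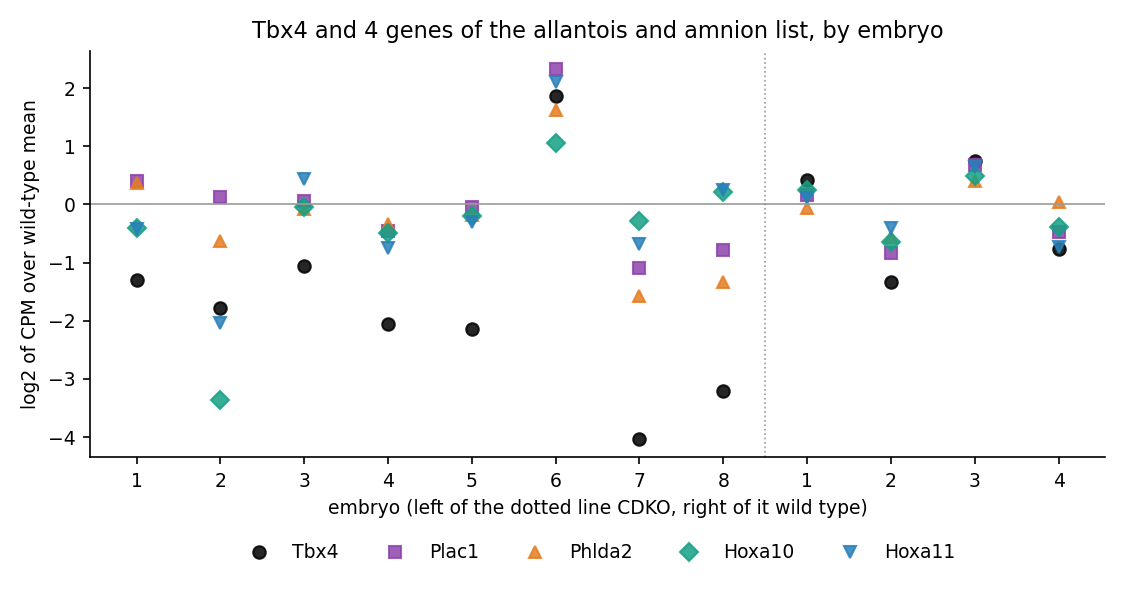
Log2 of the CPM of Tbx4, Plac1, Phlda2, Hoxa10 and Hoxa11 over their wild-type means (vertical axis) in each CDKO embryo (left of the dotted line) and wild-type embryo (right). All 5 genes were highest in CDKO embryo 6, and in the other 7 Tbx4 lay below its wild-type mean. Plac1, Phlda2, Hoxa10 and Hoxa11 are from the 6 of 11 allantois and amnion genes that were highest in that CDKO embryo. The rest of the list is not shown, and of it Ahnak was lowest in that embryo.

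Pitx1, the hindlimb homeodomain gene, also expressed in the first branchial arch, was at 25.6 CPM in the lowest, 57.8 CPM at the median and 115 CPM in the highest CDKO embryo. The wild-type embryos 1 to 4 were at 44.8, 38.7, 54.8 and 40.6 CPM. Of the CDKO embryos 6 lay above every wild-type embryo, embryo 7 lay within the wild-type range and embryo 2 lay below it. The log2 fold change of Pitx1 was 0.50 (SE 0.31, adjusted p = 0.205). Without CDKO embryo 2, the embryo low in posterior genes, it was 0.62 (SE 0.23, adjusted p = 0.0427 by edgeR), and without that embryo and wild-type embryo 1 it was 0.63 (adjusted p = 0.0876). Without CDKO embryo 6, the highest for Pitx1, the log2 fold change was 0.32 (adjusted p = 0.311 by edgeR). With the GC and length trend removed it was 0.31 (adjusted p = 0.441 by edgeR). Pitx1 passed in 1 of 21 other settings of the analysis.

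Osr1, which is needed for intermediate mesoderm and later for the kidney, was at 15.2 CPM in the lowest, 17.6 CPM at the median and 21.8 CPM in the highest CDKO embryo. In wild-type embryos 1 to 4 the levels were 8.05, 18.1, 16.7 and 22.1 CPM. The CDKO range lay within the wild-type range, which wild-type embryo 1 stretched downwards. Osr1 differed by 0.17 on the log2 scale (SE 0.20, adjusted p = 0.505), with a 95% interval of 0.859-fold to 1.47-fold.

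Of the 8 genes, 7 had positive fold changes. Among them were the 3 of the epicardial lineage, Wt1 and Tcf21, which were called, and Tbx18, which was not. Tcf21, a bHLH factor of epicardial, renal and craniofacial mesenchyme, was at 10.2 CPM in the lowest, 12.2 CPM at the median and 13.6 CPM in the highest CDKO embryo. Wild-type embryos 1 to 4 stood at 7.18, 7.09, 7.54 and 6.53 CPM. The groups lay well apart, and the coefficient of variation was 8.35% in the CDKO group and 5.92% in wild type, the lowest of the 8 genes in both. Tcf21 rose by 0.78 on the log2 scale (SE 0.09, adjusted p = 6.18e-06), with higher levels in 8 of 8 embryos.

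Wt1, a zinc finger factor of the mesothelium, proepicardium and urogenital ridge, was at 3.31 CPM in the lowest, 5.19 CPM at the median and 10.1 CPM in the highest CDKO embryo. The wild-type embryos 1 to 4 were at 1.33, 2.79, 3.74 and 2.19 CPM. Of the CDKO embryos 7 lay above every wild-type embryo, and embryo 4 lay inside the wild-type range. Wt1 rose by 1.18 on the log2 scale (SE 0.30, adjusted p = 0.00439), with 8 of 8 embryos above the wild-type mean. Wt1 rested on the fewest counts in total of the 8 genes, with 67 to 173 counts in a CDKO library and 23 to 65 counts in a wild-type library. Its divergent antisense neighbour, listed as AI314831, held 0 to 6 counts per library and was not tested.

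Tbx18, a T-box repressor of proepicardium, somite and limb mesoderm, was at 4.64 CPM in the lowest, 7.94 CPM at the median and 10.7 CPM in the highest CDKO embryo. In wild-type embryos 1 to 4 the levels were 3.88, 5.87, 6.97 and 6.73 CPM. The groups overlapped in CDKO embryos 4 and 6. The log2 fold change of Tbx18 was 0.46 (SE 0.21, adjusted p = 0.0731). It passed in 1 of 21 other settings, the fit without CDKO embryo 4 (0.55, adjusted p = 0.016 by edgeR). Without wild-type embryo 1 it was 0.31 (adjusted p = 0.237 by edgeR). Without that embryo and CDKO embryo 2 it was 0.27 (adjusted p = 0.311 by edgeR). Tbx18 overlaps an unclassified transcript on the other strand, D030062O11Rik, and the sources used here do not say whether counting used strand, so its counts are uncertain. Annotated RNAs on the other strand also overlap Tbx3, Pitx1, Osr1 and Tcf21, and their reads cannot be told apart for the same reason. Of the RNAs that overlap Pitx1, 1 lies on the same strand, where counting by strand would not separate it either. The RNA that overlaps Osr1, listed as 1700022H16Rik, held 0 to 1 counts per library.

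The 8 genes did not share an order of embryos. Among the CDKO embryos, embryo 6 was the highest for Tbx3, Tbx4 and Pitx1. Embryos 7 and 8 were the highest pair for both Wt1 and Tbx18, and embryo 4 was the lowest for both. Embryo 7 was at the same time the lowest for Tbx4, Osr1 and Tcf21. Among the wild-type embryos, embryo 3 was the highest for 7 of the 8 genes (22.8% of all tested genes had their highest wild-type level there), and embryo 4 was the highest for Osr1. Wild-type embryo 1 was the lowest for Osr1, Tbx18 and Wt1, and wild-type embryo 2 was the lowest for Tbx2, Tbx3, Tbx4 and Pitx1.

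Levels were compared between genes as CPM per kilobase of the longest transcript in GENCODE M21. Pitx1 stood highest, at 25.9 ± 10.7 CPM per kilobase in the CDKO embryos (SD, n = 8) and 18.3 ± 2.93 in wild type (SD, n = 4). In the CDKO embryos Osr1 (9.07), Tbx3 (7.73), Tbx2 (6.86), Tcf21 (6.79) and Tbx4 (5.54 CPM per kilobase) followed, and Wt1 (1.85) and Tbx18 (1.73 CPM per kilobase) were lowest. The Tbx4 value (SD 9.77) rested on CDKO embryo 6, and without it Tbx4 was at 2.11 ± 1.22 CPM per kilobase in the CDKO embryos. In wild type the order was Pitx1, Tbx4 (8.15), Osr1 (8.07), Tbx3 (7.37), Tbx2 (4.08), Tcf21 (3.96), Tbx18 (1.25) and Wt1 (0.813 CPM per kilobase). The mean ± SD ranges of neighbours in these orders overlapped except for Pitx1 above the next gene in both groups, and Tbx3 above Tbx2 and Tcf21 above Tbx18 in wild type.

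Over all tested genes 26.6% rose and 24.9% fell, and the counts of each gene list below are read against these shares. Lateral plate genes other than the 8 rose more often than they fell. Of 16 tested, 10 rose, none fell and 6 missed the threshold, with a median log2 fold change of 0.73. Their summed level was 796 to 1086 CPM in the CDKO embryos and 506 to 704 CPM in wild type. Hand1, a bHLH factor of lateral mesoderm and heart, was at 156 ± 38.7 CPM (SD, n = 8) in the CDKO embryos and 64.3 ± 13.2 CPM (SD, n = 4) in wild type (log2 fold change 1.27, adjusted p = 0.00031 by edgeR). Gata6, a GATA factor of heart and gut mesoderm and endoderm, rose by 1.04 on the log2 scale, and Snai2, a repressor of epithelial genes, by 0.91. Wild-type embryo 1 was the lowest wild-type embryo in 12 of the 16 genes, against 31.2% of all tested genes; without it and CDKO embryo 2, 9 rose and none fell.

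Listed regulators of the limb field and limb bud moved both ways. Whole embryos do not show in which tissue a listed gene changed. Of 24 tested, 11 rose, 4 fell and 9 missed the threshold, with a median of 0.19. Prrx2, a homeobox gene of limb and face mesenchyme, was at 81.8 ± 13.1 CPM (SD, n = 8) in the CDKO embryos and 54.7 ± 2.63 CPM (SD, n = 4) in wild type (log2 fold change 0.58, SE 0.10, adjusted p = 0.000363 by edgeR). The listed genes that fell were the zinc finger genes Sall1 (-0.55) and Sall4 (-0.28), Sp8 (-0.35) and Gli3 (-0.24), a hedgehog effector. Without wild-type embryo 1, 2 genes fell.

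Proepicardial and epicardial genes beside Tbx18, Wt1 and Tcf21 rose in 8 of 15 cases, fell in 1 and did not pass in 6, with a median of 0.62. The number that fell was 2 without wild-type embryo 1, with quality weights or with dispersions not robust, and 0 with a filter of 1 CPM. Upk1b, a uroplakin gene of mesothelium, was at 3.26 ± 0.845 CPM (SD, n = 8) in the CDKO embryos and 0.514 ± 0.198 CPM (SD, n = 4) in wild type (log2 fold change 2.65, SE 0.28). Dcn, a matrix proteoglycan gene, was at 8.27 ± 2.26 CPM in the CDKO embryos and 1.95 ± 0.126 CPM in wild type (2.08, SE 0.20). Bnc1, a zinc finger gene of mesothelium, rose by 1.12 (SE 0.18). Each lay above every wild-type embryo in 8 of 8 embryos. The gene that fell was Aldh1a1, a retinaldehyde dehydrogenase gene (-1.34, adjusted p = 0.00343 by edgeR).

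Genes of the intermediate mesoderm, the other territory of Osr1 and Wt1, mostly did not pass. Of 17 tested, 3 rose, 2 fell and 12 missed the threshold, with a median of 0.04. Npnt, which encodes the matrix protein nephronectin, rose by 0.63 and Wnt4 by 0.59, while Sim1 (-1.01) was among those that fell. The early kidney gene Pax8 had a log2 fold change of -0.18 (adjusted p = 0.269).

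T-box genes outside the set went in both directions. Of 13, 6 were tested: Tbx5, Tbx20 (0.67, SE 0.12), a heart gene, and Tbx1 (0.44, SE 0.14), a pharyngeal gene, rose, while Mga (-0.50, SE 0.10) and the tail bud genes Tbx6 (-1.40, SE 0.49) and T (-0.99, SE 0.37) fell. Tbx1 missed the threshold when wild-type embryo 3 was left out (adjusted p = 0.0508 by edgeR) and with the GC and length trend removed (0.0713). The call of T was lost without any 1 of the wild-type embryos or of CDKO embryos 1, 5, 7 and 8 (adjusted p 0.0541 to 0.105 by edgeR), and that of Tbx6 without wild-type embryo 2, 3 or 4 or CDKO embryo 1, 7 or 8 (0.0514 to 0.0887). Paralogs of the other members were few. Osr2 rose by 0.85 (SE 0.31), on 9 to 30 counts in a CDKO library and 6 to 13 counts in a wild-type library. Its call was lost without wild-type embryo 1 or 2 or CDKO embryo 2 or 5 (adjusted p 0.0526 to 0.0971 by edgeR). It was also lost without both CDKO embryo 2 and wild-type embryo 1 (0.144 by edgeR). DESeq2 (adjusted p = 0.0527) and limma-voom with quality weights (adjusted p = 0.0535) did not call Osr2 either. Tcf15, a somite bHLH gene, fell by 0.74 (SE 0.16) and Msc, the nearest relative of Tcf21, had a log2 fold change of 0.72 (adjusted p = 0.149).

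**Figure D4:**
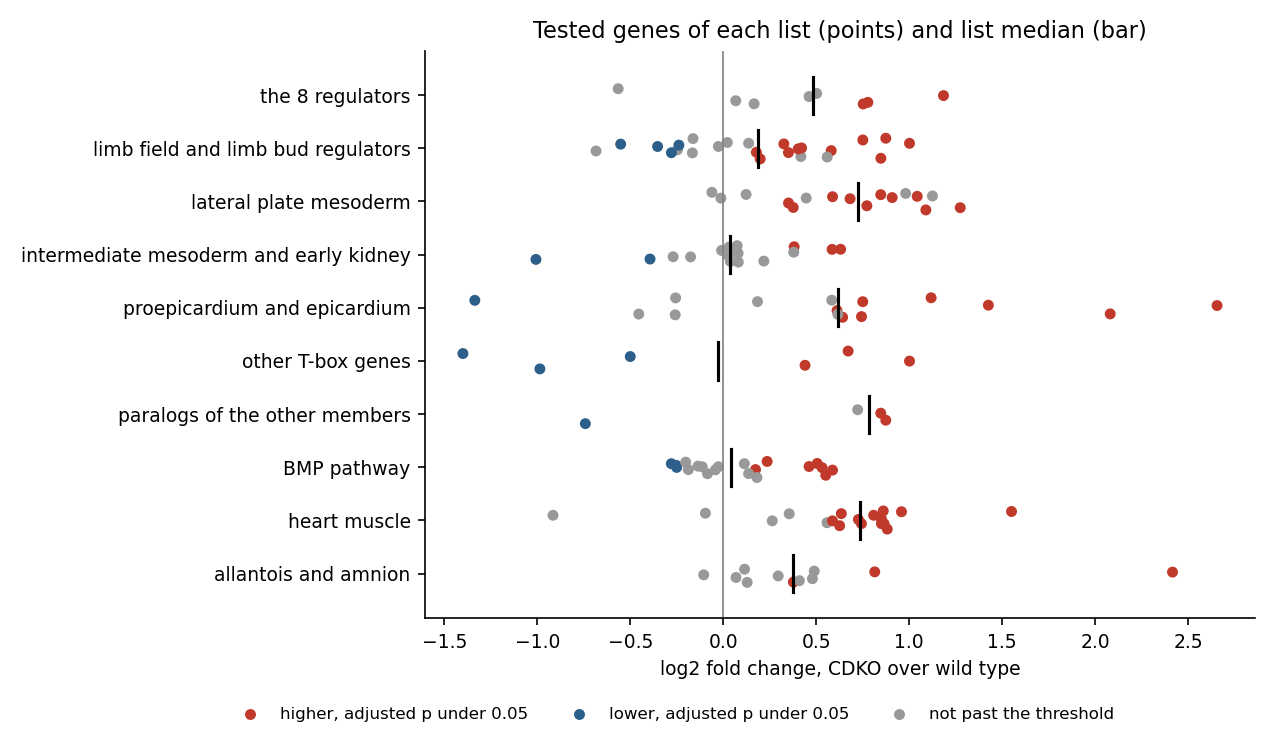
Log2 fold change, CDKO over wild type (horizontal axis), of the tested genes of the 8 regulators and of 9 gene lists, 1 row each; red and blue points passed the test, grey points did not, and the black bar is the list median. The medians of the lateral plate list (0.73) and the heart muscle list (0.73) lay farther to the right than those of the limb field list (0.19) and the intermediate mesoderm list (0.04).

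BMP signals are known to activate Tbx2 and Tbx3 in heart and limb. Of 20 BMP pathway genes tested, 7 rose, 3 fell and 10 missed the threshold, with a median of 0.04. The share that passed was near that of all tested genes (51.5%, with 26.6% higher and 24.9% lower). The ligand gene Bmp4 was at 52.0 ± 7.24 CPM (SD, n = 8) in the CDKO embryos and 34.5 ± 4.3 CPM (SD, n = 4) in wild type (log2 fold change 0.59, SE 0.11), and the inhibitor genes Smad7 (0.46) and Smad6 (0.53) rose as well. The receptor gene Bmpr1a fell by 0.28 and Smad5 by 0.25.

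Marker genes of other cell types, some of which express members of the 8, were summed beside them. Of 18 heart muscle genes 13 rose and none fell, with 5 not past the threshold (1 fell without CDKO embryo 7 or 8), and their summed level was 2661 to 4706 CPM in the CDKO embryos and 1733 to 2214 CPM in wild type. Of 11 allantois and amnion genes 3 rose (27.3%, against 26.6% of all tested genes) and none fell, with sums of 955 to 1481 CPM in the CDKO embryos and 580 to 790 CPM in wild type. Acta2, a smooth muscle actin gene, was the most abundant of them in both groups. It averaged 564 CPM in the CDKO embryos and 321 CPM in wild type. Acta2 was highest in CDKO embryo 2 and in wild-type embryo 1. Those embryos were also the highest of their groups in 14 and 15 of the 18 heart muscle genes. From which tissue the Acta2 RNA came was not tested. Postn stood at 266 ± 102 CPM (SD, n = 8) in the CDKO embryos and 49.8 ± 15.9 CPM (SD, n = 4) in wild type. Of 15 endothelial genes 8 rose and none fell, with sums of 651 to 931 CPM in the CDKO embryos and 530 to 616 CPM in wild type. Of 16 tail bud and posterior axis genes 7 fell and none rose, and 12 fell and 1 rose without CDKO embryo 2. None of 10 red cell, 15 yolk sac endoderm and 3 trophoblast genes passed, and 4 of 10 forebrain genes fell (1 without wild-type embryo 1). Red cell genes summed to 39.4 to 1731 CPM in the CDKO embryos and 816 to 1367 CPM in wild type, and 9 of them fell with sample quality weights and 2 without CDKO embryo 1 or without CDKO embryo 8. Of the yolk sac genes 3 fell with quality weights and 1 without CDKO embryo 1. The part of these cell types in the levels of the 8 regulators was not tested.

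For each of the 8 genes, the genes whose log2 CPM deviated most alike from the group means over the 12 embryos were found. This describes these libraries, which share depth scaling and stage. Each gene named closest is the top of a search over all tested genes of at least 5 CPM on average. How high a likeness such a search gives by chance was not tested. The closest to Tbx4 was Plac1, with a Pearson likeness of 0.98. Both were by far the highest in CDKO embryo 6, at 93.2 CPM for Tbx4 and 34.1 CPM for Plac1. The next closest to Tbx4 was Sgce (0.97). Pitx1 lay closest to the posterior gene Hoxa10 (0.91), Osr1 to the intermediate mesoderm gene Lhx1 (0.91), Tbx18 to the matrix gene Tgfbi (0.90), Wt1 to the kinase gene Plk2 (0.89) and Tbx3 to the mitochondrial polymerase gene Polg (0.96). The closest to Tbx2 was Blcap (0.87) and the closest to Tcf21 was Nudcd3 (0.91). Osr1 and Lhx1 were both lowest in wild-type embryo 1, at 8.05 and 3.53 CPM. The next closest to Osr1 was Pip5k1c (0.90), and to Pitx1 it was Rarg (0.90).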

How the data were processed

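Poly-A RNA of 12 single whole embryos was read in pairs of 50 bases, per the labels. The authors deposited a table of unnormalized counts for each symbol and embryo. The submitters' processing notes name build mm9 and the tools STAR, featureCounts, DESeq2 and FastQC; the sources used here give no versions, annotation, strand setting or rule for multiply mapping reads.

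The genotype effect was fitted in edgeR 4.0.16 (R 4.3.3) by the robust quasi-likelihood F test, after filterByExpr and TMM and without covariates, with Benjamini-Hochberg adjustment over all tested genes and a threshold of 0.05. An SE is the size of the log2 fold change over the root of F. Simulated counts with known changes were used to check the fit. Alternatives used DESeq2 1.42.0, limma 3.58.1 and other settings. The 3 ratios of gene pairs, and their tests, were added after values were seen. The 8 genes and all 15 lists were chosen with earlier results of these data known. The genes named are the 8, their neighbours, up to 4 genes of lowest p per list, all tested T-box genes and paralogs, and the genes most alike, of which some are not reported here; Pax8, Smad6, Aldh1a1, Sp8, Gli3, Sall4, Phlda2 and Hoxa11 were named after their values were seen. Symbols were matched to GENCODE M21 transcripts, 20882 directly, 1939 by a unique synonym and 463 not at all; near-identical copies (95% over 200 bases) were sought with BLAST 2.17.0.

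No pair of libraries of a group was within sampling noise (lowest chi-square per degree of freedom 3.89). The p-values set the group difference against the spread between these embryos, which includes counting error. Nothing says whether embryos shared litters. If some did, the embryos are not independent and the p-values may be too small.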

Additional observations from a re-analysis of the deposited data

Results flagged for a closer look

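In 8 of 46 groups of embryos examined (17.4%), 1 embryo lay far from the rest by Dixon's 95% limit; chance gives about 1 in 20, and the groups share embryos. Tbx2 was at 20.5 CPM in wild-type embryo 3 and at 12.5 to 13.5 CPM in the remaining wild-type embryos. Tbx4 was at 93.2 CPM in CDKO embryo 6 and at 1.57 to 12.3 CPM in the remaining CDKO embryos. Wild-type embryo 1 was low in the summed level of proepicardial and epicardial genes, with 243 CPM, the rest being at 342 to 358 CPM among wild-type embryos, and in that of the list of paralogs, at 34.1 CPM against 47.9 to 49.0 CPM. CDKO embryo 2 was high in the summed BMP pathway genes, with 1320 CPM against 1160 to 1230 CPM in the remaining CDKO embryos, and in heart muscle genes, with 4710 CPM against 2660 to 3520 CPM, and low in tail bud and posterior axis genes, at 45.5 CPM against 228 to 347 CPM. CDKO embryo 6 was high in endothelial genes, at 931 CPM against 651 to 755 CPM.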

How the results depend on the processing

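The calls of Tbx2, Wt1 and Tcf21 held in all 21 alternatives, with log2 fold changes of 0.57 to 0.94, 0.98 to 1.43 and 0.74 to 0.81. The number of the 8 genes that fell was 1 (Tbx4) with limma-voom and sample quality weights, and 0 to 1 over the fits that left out an embryo, against 0 as reported; the cause was not tested. Tbx3 turned to -0.0042 with quality weights and -0.044 without CDKO embryo 6, and Osr1 to -0.057 without wild-type embryo 1 and -0.026 without it and CDKO embryo 2, none past the threshold; over all fits leaving out an embryo, Tbx3 ran from -0.044 to 0.17 and Osr1 from -0.057 to 0.35. Over all genes 6342 to 8639 passed. Of 630 counts of list genes 45 moved by over 1.5 times. Of 60 other named genes 12 lost a call under some alternative and none turned. The median log2 fold change of all genes stayed within 0.017 of 0 in every setting. No paired analysis was possible because the labels number no embryos, and the numbers used here only name them. Depth limits the lowest values, such as Tbx4 in CDKO embryos 7 and 8 (27 and 57 counts) and Wt1 in wild-type embryo 1 (23 counts).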

Other observations

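Of 12 tested genes next to the 8 regulators on their chromosomes, 6 were called (50%, against 51.5% of all tested genes): Tbx5, described above, rose and 5 fell. Bcas3, beside Tbx2, differed by -0.19 on the log2 scale (SE 0.07, adjusted p = 0.0258 by edgeR), a call lost without wild-type embryo 2, 3 or 4 (adjusted p 0.0592 to 0.0734). Brip1, beyond Tbx4, differed by -0.15 (adjusted p = 0.202). Nt5e, an ectonucleotidase gene and the next coding gene to Tbx18 on one side, averaged 2.59 ± 1.15 CPM over the CDKO embryos (SD, n = 8) and 4.35 ± 0.229 CPM over wild type (SD, n = 4). Its log2 fold change was -0.75 (SE 0.26, adjusted p = 0.0262 by edgeR), a call lost without wild-type embryo 1, 2 or 4 (0.0552 to 0.0646). On the other side, the gene listed as 4922501C03Rik fell by 0.41 (SE 0.09). Tbpl1, beside Tcf21, fell by 0.18, a call lost without both CDKO embryo 2 and wild-type embryo 1 (adjusted p = 0.0648), and Eif3m, beside Wt1, fell by 0.20, a call lost after removal of the GC and length trends (adjusted p = 0.384). The gene listed as 0610012H03Rik, on the other side of Wt1, differed by 0.57 (SE 0.29, adjusted p = 0.113).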
